A study of Mus musculus with 12 samples.

Results

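The NF-kB subunits and the inhibitors that NF-kB itself induces were followed in neurospheres, balls of neural progenitor cells grown from mouse embryos and then allowed to differentiate. The set had 10 members out of 20887 genes named by a probe on the array. It held 5 subunits (Rela, Nfkb1, Nfkb2, Relb and Rel) and 5 inhibitors or feedback regulators (Nfkbia, Nfkbie, Bcl3, Nfkbiz and Tnfaip3). Members were chosen as every probe whose RefSeq transcript belongs to one of these genes. They were covered by 12 probes, since Nfkb1 and Relb had 2 probes each, and 9 members had a probe that counted as expressed, which means that its signal in 1 condition was well above background on 3 or more of the 4 arrays in some comparison. Rel was the member that did not.

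All cultures came from the telencephalon of C57BL/6 embryos at day 13, grew as spheres for 5 days by the labels (the methods give a slightly longer time) and differentiated for 7 days without growth factors. WT cultures came from wild-type embryos. APP_WT cultures came from embryos with the APPswe/PS1dE9 transgenes and were left untreated. These encode a part-human amyloid precursor protein carrying the Swedish mutations and presenilin 1 without exon 9, and their expression is targeted to neurons. BK_APP and HOE_APP cultures carried the same transgenes and received 1 µM bradykinin (BK), the peptide that activates kinin B2 receptors, or 1 µM HOE-140, a peptide antagonist of the B2 receptor, on days 0, 3 and 6. Each comparison (APP_WT versus WT, BK_APP versus APP_WT, HOE_APP versus APP_WT) had 4 two-colour Agilent arrays, and dyes were swapped on a pair of them, so that a ratio compares 2 conditions on 1 array. The methods describe the replicates as independent biological ones, and the labels do not name the animals or cultures. The direction of HOE_APP is likely, since the sample titles, the label of the first channel, the dye layout of the BK_APP arrays and the deposited table of ratios go the same way, but the labels of both its channels name the same treatment. The deviations of the channel taken as APP_WT on these arrays also correlated more with those of the other APP_WT channels (r = 0.367 to 0.623 over all probes) than those of the channel taken as HOE_APP did (0.234 to 0.387), in each of the 4 pairs compared. The channels taken as APP_WT also shared a dye in each pair and the HOE_APP channel had the other, so dye and condition cannot be told apart there. Values with the sign turned are given where they differ. All arrays of APP_WT versus WT lay on 1 slide and those of both treatments on another, so slide and comparison cannot be told apart when the 3 comparisons are set side by side.

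NF-kB is a family of transcription factors that work as pairs of subunits. In resting cells IkB proteins such as IkB alpha (Nfkbia) and IkB epsilon (Nfkbie) hold the pairs in the cytoplasm, and the IKK kinases release them by marking the IkB proteins for destruction. Rela pairs with p50, made from Nfkb1, in the canonical pathway, and Relb pairs with p52, made from Nfkb2, in the non-canonical one. Because NF-kB switches on Nfkbia, Nfkbie and Tnfaip3 (A20, a ubiquitin-editing enzyme that damps the signal), transcripts of these genes are widely used as a readout of pathway activity. Bcl3 and Nfkbiz are nuclear IkB family members that bind p50 or p52 and can raise or lower transcription, so that the name inhibitor fits them only in part. In brain tissue, microglia and astrocytes are the cells best known for inducible NF-kB.

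Promoter sequences are shown because several members are known targets of NF-kB. RefSeq promoters of build GRCm38.p6, 250 bases before to 50 after the start site, were at hand for 7 members (10 promoters, matched by symbol). Each was searched on both strands for the kappa B consensus, the 10-base site that NF-kB binds, and for the shorter GGGNNTTCC. These motifs overlap each other, and a stretch of capitals below covers every match it touches. The consensus was found in 8 of the 10 promoters, those of 6 members, against 4.51% of 32851 mouse promoters. GGGNNTTCC was found in 5 member promoters, against 5.82% of all. Members were chosen for their known place in the pathway, so this is a description of known targets and not a test. The promoters of the inhibitors are given first, then those of a subunit with a match (Nfkb2), a subunit with no match (Rela) and the subunit that was not expressed here (Rel). All are written 5′ to 3′ on the strand of the gene.
Nfkbia, minus strand, chr12:55492598-55492897: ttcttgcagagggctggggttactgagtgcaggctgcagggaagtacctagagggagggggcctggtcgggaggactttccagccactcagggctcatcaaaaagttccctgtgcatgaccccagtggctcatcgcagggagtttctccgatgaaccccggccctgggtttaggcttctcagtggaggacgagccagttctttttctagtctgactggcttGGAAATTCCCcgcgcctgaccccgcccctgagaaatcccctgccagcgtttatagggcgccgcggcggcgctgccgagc
Nfkbie, plus strand, chr17:45555450-45555749: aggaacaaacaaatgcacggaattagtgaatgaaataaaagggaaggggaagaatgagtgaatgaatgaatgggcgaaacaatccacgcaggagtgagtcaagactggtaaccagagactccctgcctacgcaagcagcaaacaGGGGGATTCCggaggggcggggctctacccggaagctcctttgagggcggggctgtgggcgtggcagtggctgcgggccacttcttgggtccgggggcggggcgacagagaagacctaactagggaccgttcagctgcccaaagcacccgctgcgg
Bcl3, minus strand, chr7:19822706-19823005: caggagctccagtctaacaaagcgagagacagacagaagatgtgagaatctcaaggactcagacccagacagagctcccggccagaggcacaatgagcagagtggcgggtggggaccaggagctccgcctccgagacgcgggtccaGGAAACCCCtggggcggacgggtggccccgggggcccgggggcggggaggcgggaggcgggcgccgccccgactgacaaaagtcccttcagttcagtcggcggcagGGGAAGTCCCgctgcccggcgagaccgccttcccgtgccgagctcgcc
Tnfaip3, minus strand, chr10:19015361-19015660: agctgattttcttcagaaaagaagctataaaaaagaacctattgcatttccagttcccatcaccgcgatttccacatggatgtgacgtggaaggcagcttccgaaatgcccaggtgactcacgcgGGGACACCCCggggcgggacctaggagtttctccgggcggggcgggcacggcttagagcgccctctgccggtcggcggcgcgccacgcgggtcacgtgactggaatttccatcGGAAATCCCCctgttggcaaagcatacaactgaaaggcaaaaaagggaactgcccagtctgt
Nfkb2, plus strand, chr19:46304487-46304786: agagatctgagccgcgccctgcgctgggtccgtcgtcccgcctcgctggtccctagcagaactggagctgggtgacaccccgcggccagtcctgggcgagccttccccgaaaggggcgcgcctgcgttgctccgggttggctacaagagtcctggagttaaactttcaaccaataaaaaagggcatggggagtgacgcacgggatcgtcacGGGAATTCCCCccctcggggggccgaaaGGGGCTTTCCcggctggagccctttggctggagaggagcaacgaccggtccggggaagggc
Rela, plus strand, chr19:5637291-5637590: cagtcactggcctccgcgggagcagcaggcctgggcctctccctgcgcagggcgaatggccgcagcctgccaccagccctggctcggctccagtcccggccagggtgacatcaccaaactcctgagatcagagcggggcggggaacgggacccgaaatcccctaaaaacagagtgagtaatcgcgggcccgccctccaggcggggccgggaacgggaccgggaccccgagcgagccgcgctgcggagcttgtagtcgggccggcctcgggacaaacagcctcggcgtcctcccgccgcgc
Rel, minus strand, chr11:23770920-23771219: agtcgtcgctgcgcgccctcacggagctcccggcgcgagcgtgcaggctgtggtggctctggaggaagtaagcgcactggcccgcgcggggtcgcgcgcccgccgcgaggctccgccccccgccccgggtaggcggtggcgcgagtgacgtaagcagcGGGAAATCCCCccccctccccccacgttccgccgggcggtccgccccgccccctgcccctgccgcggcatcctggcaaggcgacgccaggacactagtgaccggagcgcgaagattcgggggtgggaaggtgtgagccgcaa

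In the Nfkbia promoter the single match, GGAAATTCCC, ran from -29 to -20 relative to the start site. The Nfkbie match GGGGGATTCC ran from -106 to -97. Bcl3 had a match to GGGNNTTCC alone from -104 to -96 and the stretch GGGAAGTCCC from 3 to 12, after the start site. Tnfaip3 had GGGACACCCC from -125 to -116 and GGAAATCCCC from -12 to -3 in the promoter shown, and no match in the promoter of its other start site. Nfkb2 had GGGAATTCCCC from -39 to -29 and GGGGCTTTCC from -11 to -2 in the promoter shown, and its other promoters, whose windows overlap, held 2 further stretches. Rel had GGGAAATCCCC from -92 to -82. No match in the Rela window says only that these letters are not in it.

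In APP_WT compared to WT, transcripts of all 4 expressed subunits and of 4 of the 5 inhibitors were higher, and the exception, Nfkbiz, did not pass the test. Among the 7 members called higher and measured on both sides, the log2 fold changes ran from 0.31 for Nfkb1 to 1.37 for Nfkbia, and Bcl3 had only a lower bound. In limma's test with Benjamini-Hochberg adjustment over all 29361 expressed probes, 8 of the 9 expressed members were called higher and 0 lower, beside 11.6% of all expressed probes called higher and 7% called lower. With the replicate number as a block on the shared APP_WT channels, 9 of 9 were called, and 8265 probes in place of 5446. All 4 ratios lay above 0 for 8 members, beside 15.1% of probes. The normalised levels in APP_WT and WT did not overlap for 7 members, beside 6.72% of probes.

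**Figure D1:**
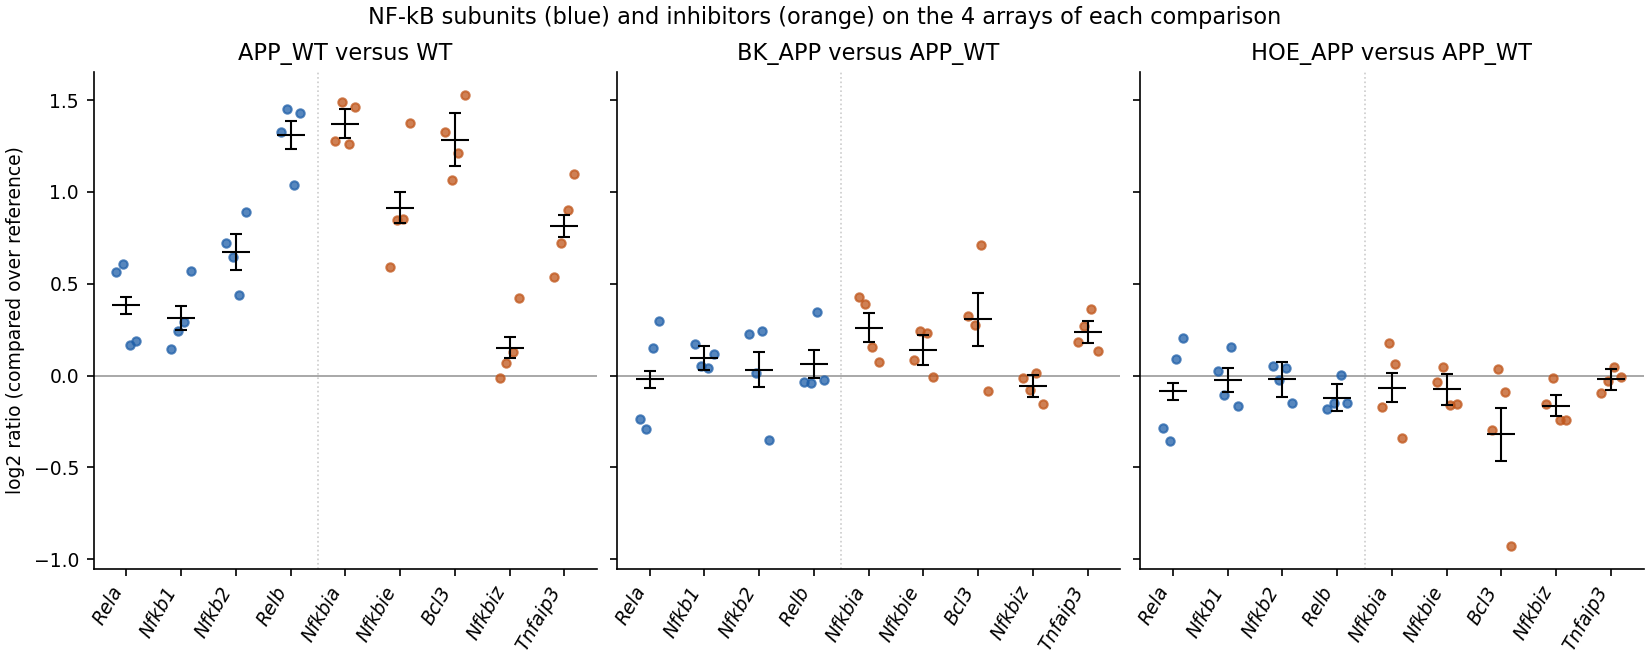
Log2 ratio (compared over reference condition) of each expressed member on the 4 arrays of each comparison, with points for arrays, the black line for the log2 fold change and its bar for the standard error from limma. In APP_WT versus WT every member except Nfkbiz lies above 0 on all 4 arrays, whereas in both treatment comparisons the log2 fold changes lie between -0.32 and 0.31.

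Among the subunits, Relb, the partner of p52, differed most. Its log2 ratios in APP_WT versus WT were 1.32, 1.45, 1.04 and 1.43 on arrays 1 to 4. All 4 arrays showed more than a doubling in APP_WT, and the levels of the 2 conditions did not overlap. The log2 fold change was 1.31 ± 0.07 (SE, n = 4 arrays; adjusted p = 1.21e-06), a 2.48-fold difference. A second Relb probe, of lower intensity, gave ratios from 0.78 to 1.05 and a log2 fold change of 0.88 (adjusted p = 5.75e-05), so both probes were called and differed in size.

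Nfkb2, the precursor of p52, had ratios of 0.72, 0.64, 0.44 and 0.89. Every array was higher in APP_WT, and the log2 fold change was 0.67 ± 0.10 (SE, n = 4; adjusted p = 0.000752). With the processed intensities of the scanner software the value was 1.05, which was also called. Nfkb1, the precursor of p50, had ratios of 0.15, 0.24, 0.29 and 0.57, and its levels in APP_WT and WT overlapped. Its log2 fold change was 0.31 ± 0.07 (SE, n = 4; adjusted p = 0.00778). This call was lost without array 4 (0.24, adjusted p = 0.0627), in a separate fit of the comparison without a dye term (0.31, adjusted p = 0.0922), and at the second Nfkb1 probe (0.24, adjusted p = 0.0792).

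Rela, which encodes p65, the main transactivating subunit, had ratios of 0.56 and 0.61 on the arrays with APP_WT in Cy3 and 0.17 and 0.19 on those with APP_WT in Cy5. All 4 were above 0, and the size followed the dye. The log2 fold change, with the dye as a term, was 0.38 ± 0.05 (SE, n = 4; adjusted p = 0.000285). The fitted dye term of the Rela probe was -0.20 in this comparison (adjusted p = 0.0398), -0.24 on the BK_APP arrays (adjusted p = 0.0337) and -0.23 on the HOE_APP arrays (adjusted p = 0.0322). The call was lost when arrays were centred on their median in place of loess (0.22, adjusted p = 0.0624) and in a separate fit without a dye term (adjusted p = 0.0717).

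**Figure D2:**
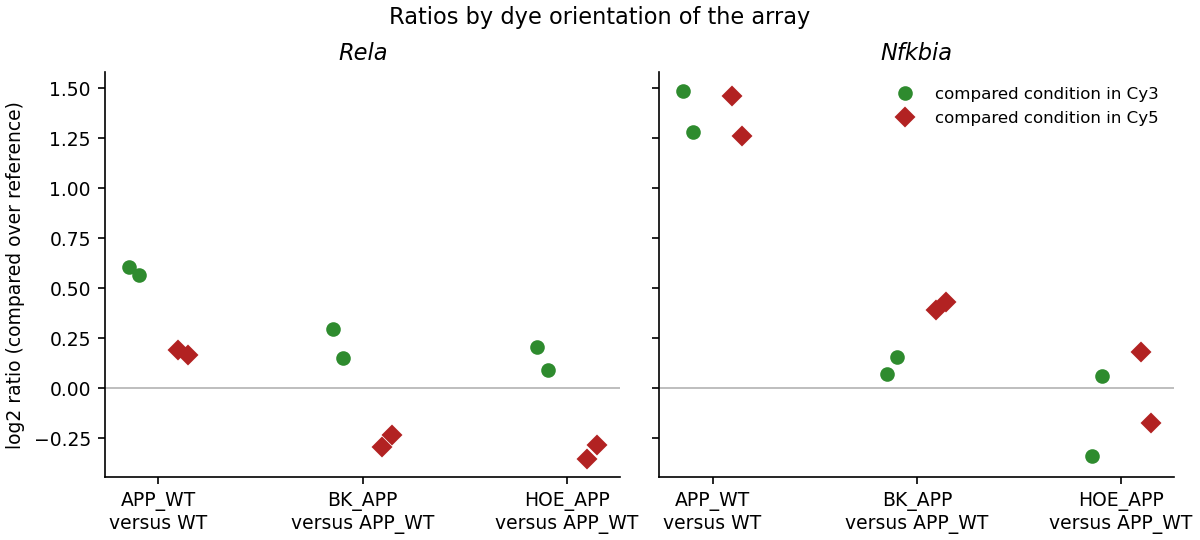
Log2 ratio (compared over reference condition) of Rela and Nfkbia on the 12 arrays, by the dye of the compared condition, with green circles for Cy3 and red diamonds for Cy5. Rela ratios with the compared condition in Cy5 lie below those in Cy3 in all 3 comparisons, from -0.35 to 0.19 against 0.09 to 0.61, and Nfkbia shows no such order in APP_WT versus WT.

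Rel, which encodes c-Rel, a subunit best known from lymphocytes, was well above background in 1 channel of the 12 arrays, that of APP_WT on array 2 of APP_WT versus WT. Its ratios there were 0.00, 0.61, -0.10 and -0.21, without a common direction. It was not tested.

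Nfkbia encodes the principal IkB protein, IkB alpha. Its ratios in APP_WT versus WT were 1.28, 1.49, 1.26 and 1.46. The 4 arrays lay close together and far from 0. The log2 fold change was 1.37 ± 0.08 (SE, n = 4; adjusted p = 1.23e-06), a 2.59-fold difference. Its normalised log2 level was 11.20 ± 0.02 in WT and 12.57 ± 0.12 in APP_WT (SD, n = 4). The 15 other settings in which Nfkbia was fitted gave values between 1.22 and 1.42.

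Bcl3, a nuclear IkB protein that works with p50 and p52, had ratios of 1.33, 1.06, 1.21 and 1.53. It was well above background in APP_WT on all 4 arrays and in WT on 0, so the fold has only a lower bound. Set against the lowest signal that could be told from background in WT, Bcl3 was at least 2.26-fold higher in APP_WT (adjusted p = 0.000147). The measured mean log2 levels were 7.54 in APP_WT and 6.25 in WT, and the fitted log2 fold change moved from 1.28 to 3.32 with the processed intensities of the scanner software.

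Nfkbie, which holds Rela and Rel pairs in the cytoplasm, had ratios of 0.59, 0.85, 0.85 and 1.38. The lowest array was still clearly above 0, and the log2 fold change was 0.92 ± 0.08 (SE, n = 4; adjusted p = 3.08e-05). Tnfaip3, the A20 gene, had ratios of 0.54, 0.72, 0.90 and 1.10. Its log2 fold change was 0.82 ± 0.06 (SE, n = 4; adjusted p = 5.27e-06), a 1.76-fold difference, with no overlap of levels.

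Nfkbiz, which encodes the inducible nuclear protein IkB zeta, had ratios of -0.01, 0.07, 0.13 and 0.42. Its arrays fell on both sides of 0, and it was well above background on 3 arrays in APP_WT and on 1 in WT. The log2 fold change of 0.15 ± 0.06 (SE, n = 4; adjusted p = 0.0991) did not pass the test. Without array 3 it was called (0.23, adjusted p = 0.0398). In the other fits with an array left out it was not called, with values down to 0.08. It was also called with the replicate number as a block on the shared APP_WT channels (0.15, adjusted p = 0.0472). The processed intensities gave 0.54 (adjusted p = 0.12).

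**Figure D3:**
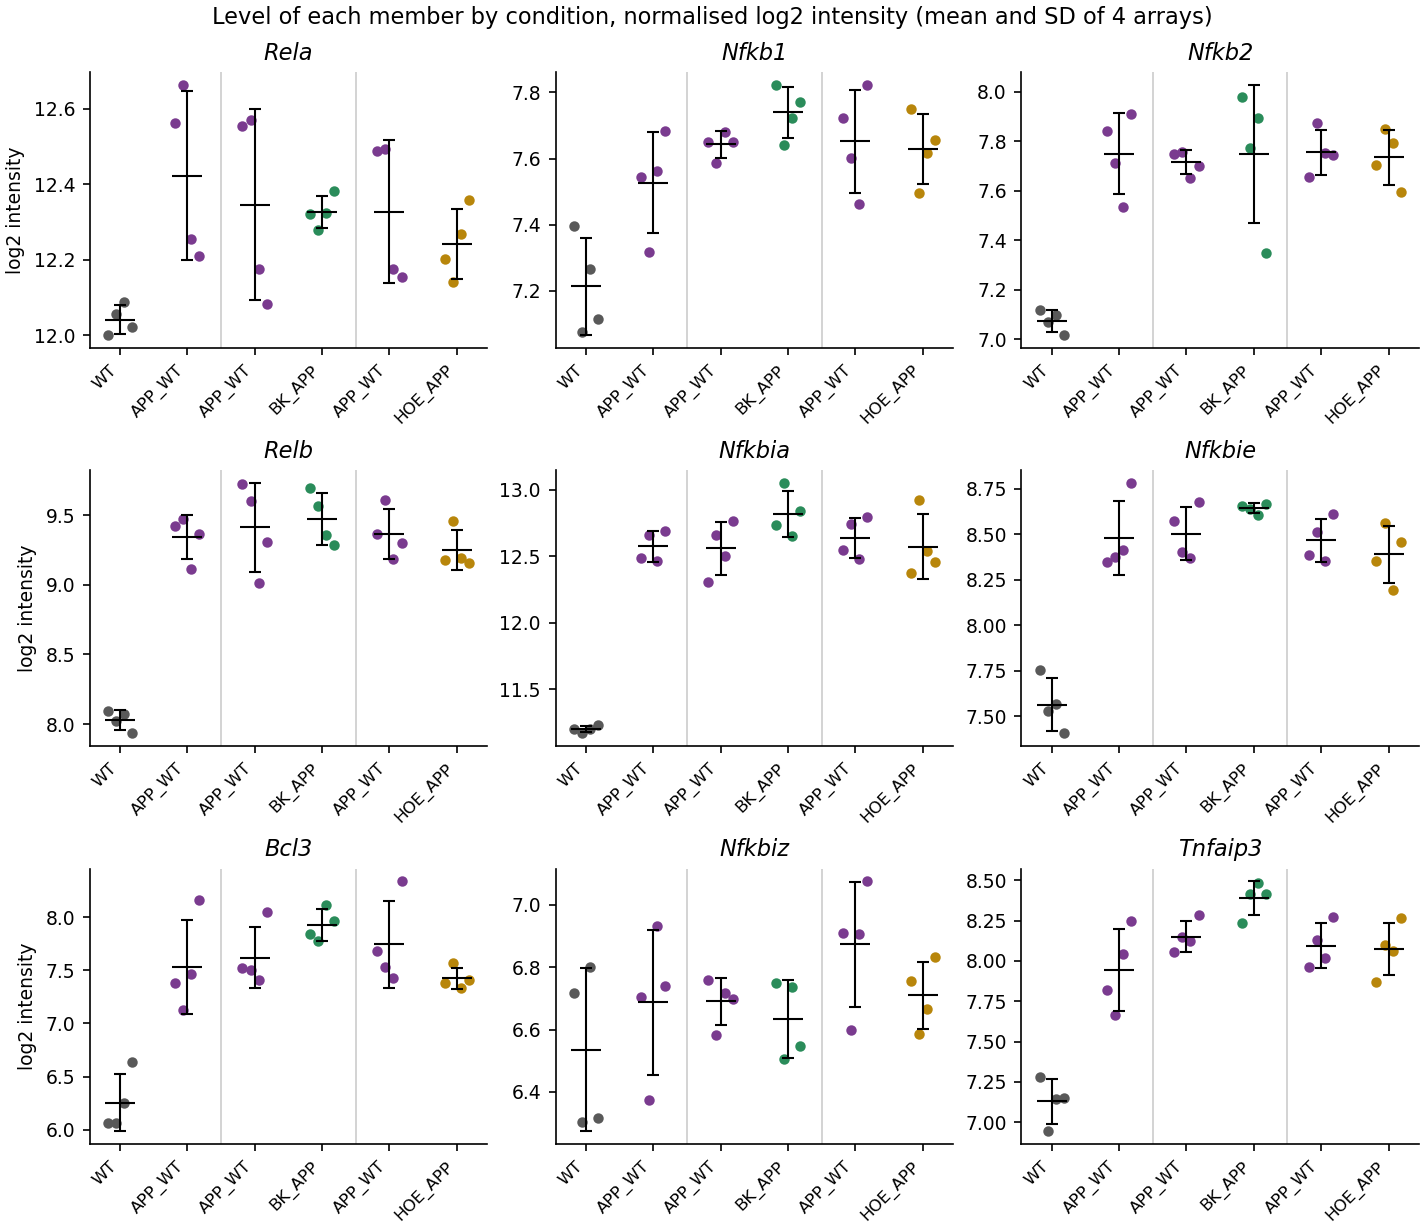
Normalised log2 intensity of the 9 expressed members in each condition, with points for arrays, the line for the mean and the bar for the SD of 4 arrays; grey lines separate the 3 comparisons. The WT mean is the lowest for every member shown, and APP_WT means on the 3 sets of arrays range from 12.56 to 12.64 for Nfkbia and from 7.94 to 8.15 for Tnfaip3.

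The order of levels over the conditions was alike for most members. The 3 sets of APP_WT channels were not taken as separate cultures, because same-numbered channels, which also share a dye, deviated together over all probes. Their correlations were r = 0.287 to 0.623, against 0.160 to 0.389 for other channels of the same numbers. The level of Bcl3 in APP_WT, for example, was 8.16, 8.05 and 8.34 on array 4 of the 3 comparisons and 7.13 to 7.68 on the other arrays. For all 9 expressed members the WT mean was the lowest, although WT and APP_WT overlapped for Nfkb1 and Nfkbiz. The 3 sets of APP_WT arrays gave means close together for Nfkb2 (7.71 to 7.76) and further apart for Bcl3 (7.54 to 7.74) and Tnfaip3 (7.94 to 8.15). BK_APP had the highest mean for Nfkb1 (7.74), Relb (9.47), Bcl3 (7.93), Nfkbia (12.82), Nfkbie (8.64) and Tnfaip3 (8.39). BK_APP, HOE_APP and APP_WT were neighbours in this order, and their levels overlapped within both treatment comparisons. The share of all probes that overlap there was not counted, and levels leave out the pairing of channels on an array. As ratios, Nfkb1, Nfkbia and Tnfaip3 lay above 0 on all 4 BK_APP arrays, beside 5.1% of probes. Nfkbiz lay below 0 on all 4 HOE_APP arrays, beside 5% of probes.

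In the subunits the median log2 fold change in APP_WT versus WT was 0.53 over the 4 expressed members, and in the inhibitors it was 0.92 over 5, while the median over all expressed probes was 0.00. On arrays 2, 3 and 4 the median ratio of the inhibitors was above that of the subunits, by 0.22, 0.53 and 0.64, and on array 1 the difference was -0.05. APP_WT was in Cy3 on arrays 1 and 2 and in Cy5 on arrays 3 and 4, so the size of this difference followed the dye. Ratios of single arrays hold no dye term. The fitted dye terms were -0.20 for Rela, 0.20 for Nfkbie and 0.18 for Tnfaip3, of which only that of Rela passed the test. The part of the dye in this difference was not tested. The groups overlapped, since Relb (1.31) was close to Nfkbia (1.37) and Nfkbiz (0.15) lay below every expressed subunit.

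**Figure D4:**
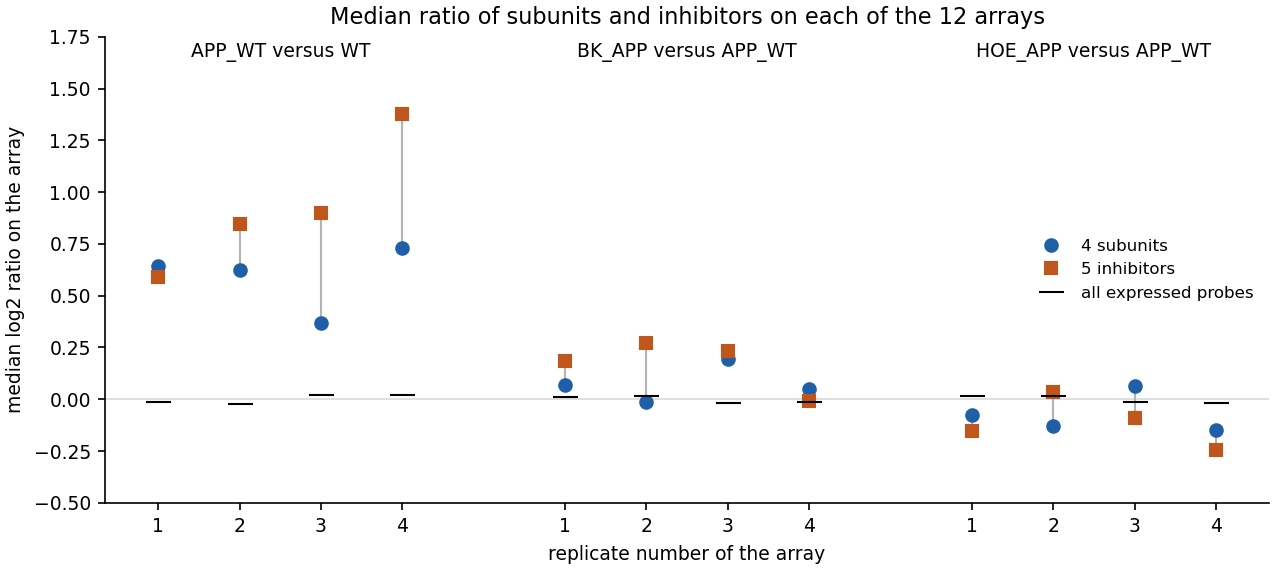
Median log2 ratio of the 4 expressed subunits (blue circles), the 5 inhibitors (orange squares) and all expressed probes (black lines) on each of the 12 arrays, numbered by replicate within a comparison. In APP_WT versus WT both groups lie between 0.37 and 1.38 with all probes near 0, and inhibitors lie above subunits on 3 of 4 arrays there and in BK_APP versus APP_WT and on 1 of 4 in HOE_APP versus APP_WT (3 of 4 with its sign turned). In every comparison the inhibitors lie higher against the subunits on the arrays with the compared condition in Cy5 than on those in Cy3.

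The neighbouring genes of the pathway were less uniform. Most kinases that act upstream were not called: 2 of 7 expressed genes were called higher, and the list median was 0.00. They were Map3k14 (0.28, adjusted p = 0.0105), the NIK kinase of the non-canonical pathway, and Ikbke (0.23, adjusted p = 0.0454), an IKK-related kinase. Ikbke was well above background on 3 arrays in APP_WT and on 1 in WT, and its ratios ran from -0.01 to 0.46. The core IKK complex genes Chuk (-0.06), Ikbkb (0.01) and Ikbkg (-0.01) and the largest decrease, Map3k7 (-0.07), did not pass the test. Of the 3 other IkB proteins, Nfkbib (0.13), Nfkbid (0.05) and Nfkbil1 (0.01), none was called in this fit.

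Among receptors and ligands that feed the pathway, 8 of 13 expressed genes were called higher and 0 lower, with a median of 0.37. Tlr2, the receptor for bacterial lipopeptides, was at 2.02 (adjusted p = 1.29e-07) and well above background on 1 WT array. Il1rap, a subunit of the interleukin 1 receptor, had the smallest value (0.04). Of the adaptors, 9 of 18 were called higher and 1 lower. Traf1, itself a target of NF-kB, led with 0.95 (adjusted p = 4.21e-05), and Tab3, a partner of the kinase TAK1, was lower at -0.22 (adjusted p = 0.00926).

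Of 12 expressed genes among the other negative regulators, 3 were called higher and 2 lower. Tnip1, the A20-binding partner of Tnfaip3, was higher (0.42, adjusted p = 0.000499), Cyld, a deubiquitinase, was not called (0.09), and Itch, a ubiquitin ligase that works with A20, was lower (-0.24, adjusted p = 0.0184). Trim30a, an interferon-induced gene with the largest value of that list, was well above background on 2 arrays in APP_WT and on 0 in WT, and was at least 1.42-fold higher in APP_WT (adjusted p = 0.000984). Of 20 expressed classical target genes, 13 were called higher and 0 lower, with a median of 0.79. Some genes called in this list, and among the receptors and adaptors, were well above background on 0 or 1 WT arrays, so the list medians are not exact folds. The 20 target genes ranged from Cxcl10, a chemokine, at 4.50 (adjusted p = 1.55e-08) to Nos2, the inducible nitric oxide synthase, at -0.09, which was not called. Birc3 was among 10 target genes without an expressed probe.

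**Figure D5:**
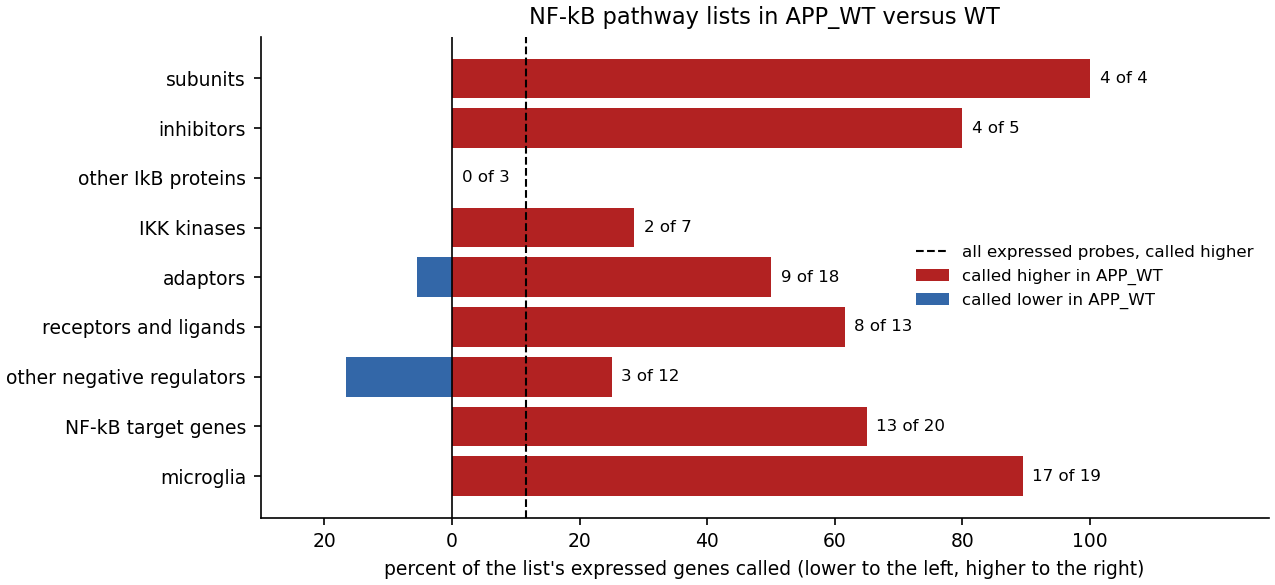
Percent of the expressed genes of each pathway list, and of the microglia marker list, called higher (red, to the right) or lower (blue, to the left) in APP_WT versus WT, with the number called higher of the number expressed beside each bar and the share of all expressed probes called higher (11.6%) as a dashed line. Subunits (4 of 4), inhibitors (4 of 5) and target genes (13 of 20) lie far to the right of the line and the other IkB proteins (0 of 3) at 0.

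Microglial transcripts moved in the same comparison. Of 24 microglia marker genes 19 were expressed and 17 of these passed the test with higher signal in APP_WT. The median of the fitted log2 fold changes was 1.60 over all 19, of which 11 were well above background in WT on 2 or fewer arrays and 2 of them on 0, so that it is not an exact fold. The summed level of the 18 markers measured on every array was 29306 to 38129 in APP_WT and 22860 to 30179 in WT, in normalised intensity units. Such a sum weighs the brightest markers most. Among the defining markers Cx3cr1 was at 2.31, Aif1 at 2.21 and Tmem119, well above background on 1 WT array, at 0.57, whereas P2ry12, P2ry13, Cd68, Spi1 and Gpr34 had no expressed probe. Of 10 astrocyte markers 8 were called higher (median 0.37). Of 12 neuron markers, all expressed, 3 were called higher and 4 lower, among them Nefl, a neurofilament gene (-0.73). Of 9 progenitor markers, also all expressed, 3 were called higher and 2 lower, and of 6 expressed pericyte and fibroblast markers 3 were lower. All 10 oligodendrocyte markers were expressed, with 1 called higher and 1 lower. Of 10 markers of peripheral myeloid cells, 2 were expressed and 1 was called higher. The part of these cells in the members' values was not tested, and in bulk RNA more cells of a type and more RNA per cell cannot be told apart.

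In BK_APP compared to APP_WT no expressed member passed the test. In limma's fit 0 of 9 were called after adjustment, as were 0% of all expressed probes, and the adjusted p-values of the members were 0.967 or higher. Before adjustment 2 of 9 members, Tnfaip3 and Nfkbia, fell under 0.05, beside 4.47% of all probes. By SAM and rank products, each at an unadjusted permutation p of 0.05 or lower, 3 of 9 members were called (Bcl3, Nfkbia and Tnfaip3), beside 1.84% of probes. By the same rule 8 of 9 were called in APP_WT versus WT, beside 12.1%.

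The ratios of Tnfaip3 in BK_APP versus APP_WT were 0.18, 0.27, 0.36 and 0.13. All 4 arrays lay above 0, with a log2 fold change of 0.24 and a 95% interval from 0.11 to 0.37. Nfkbia had 0.43, 0.39, 0.15 and 0.07, again all above 0, with the larger pair on the arrays with BK_APP in Cy5. Its log2 fold change was 0.26 with an interval from 0.09 to 0.44. Nfkb1 also had 4 positive ratios, between 0.04 and 0.17 (log2 fold change 0.10, interval -0.05 to 0.24), and 5.1% of all probes had ratios above 0 on every array.

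Bcl3 had the largest log2 fold change of the members in this comparison, 0.31, from ratios of 0.32, 0.27, 0.71 and -0.08. These arrays spread widely around that value, which was 0.11 without array 3 and 0.50 without array 4. Nfkbie had ratios between -0.01 and 0.24 and a log2 fold change of 0.14. Nfkbiz was at -0.06. The subunits Nfkb2 (0.03) and Relb (0.06) were near 0. With an array left out Nfkb2 ran from -0.12 to 0.18 and Relb from -0.03 to 0.15. Rela had -0.23 and -0.29 with BK_APP in Cy5 and 0.15 and 0.30 with BK_APP in Cy3, so that its ratios changed sign with the dye, and the fitted value was -0.02 with an interval from -0.13 to 0.09. The medians were 0.05 for the subunits (-0.01 without array 3 and 0.12 without array 4) and 0.24 for the inhibitors (0.11 without array 3).

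In HOE_APP compared to APP_WT no expressed member passed the test either. In limma's fit 0 of 9 were called, as were 0% of all expressed probes, and the adjusted p-values of the members were 0.924 or higher. Before adjustment 2 of 9 fell under 0.05, Bcl3 and Nfkbiz, both with negative values, beside 5.03% of probes. SAM and rank products called 0 of 9, beside 2.31%. All 9 log2 fold changes were below 0 in this fit. With arrays centred on their median those of Nfkb1, Nfkb2, Rela, Nfkbia and Tnfaip3 were above 0 (0.01 to 0.07). With an array left out the values reached 0.06 for Nfkb1, 0.03 for Nfkb2 and 0.03 for Nfkbia. If the sign of HOE_APP were turned, all 9 would be above 0 in the main fit.

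Bcl3 had ratios of -0.30, 0.04, -0.09 and -0.93 in HOE_APP versus APP_WT. The arrays spread widely, and the log2 fold change of -0.32 (interval -0.64 to 0.00) was -0.11 without array 4 and -0.53 without array 3. Nfkbiz had -0.15, -0.01, -0.24 and -0.24, all below 0, as had 5% of all probes, and its log2 fold change was -0.16 with an interval from -0.29 to -0.03. The signal of Nfkbiz was well above background on 3 of 4 arrays in each condition. Tnfaip3 stayed between -0.09 and 0.05 (log2 fold change -0.02), and Nfkbia between -0.34 and 0.18 (-0.07), with arrays on both sides of 0. The subunits lay between -0.12 for Relb and -0.02 for Nfkb2. Rela again split by dye, at -0.29 and -0.35 in Cy5 and 0.09 and 0.20 in Cy3. The medians were -0.05 for the subunits and -0.07 for the inhibitors. With an array left out they ran from -0.09 (without array 3) to -0.03 (without array 4) for the subunits and from -0.16 (without array 3) to -0.05 (without array 1) for the inhibitors, and without array 2 the latter was -0.15.

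Subtracting the HOE_APP value from the BK_APP value compared a B2 receptor agonist with a B2 antagonist at the same dose and days. Both are peptides, and the comparison was 1 contrast in the same model. That model held no term for the array numbers, although same-numbered BK_APP and HOE_APP arrays deviated together (r = 0.423 to 0.432). The intervals and p-values of this contrast therefore leave out that pairing. A block over these arrays alone called no member. Of 9 members 0 were called after adjustment, as were 0% of probes, and adjusted p-values were near 1. Before adjustment 3 of 9 fell under 0.05, beside 2.5% of probes. They were Bcl3 (0.63, 95% interval 0.17 to 1.08, and 0.42 to 0.83 with an array left out), Nfkbia (0.33, interval 0.08 to 0.57) and Tnfaip3 (0.26, interval 0.08 to 0.44). The intervals of the other inhibitors, Nfkbie (0.21, interval -0.05 to 0.47) and Nfkbiz (0.11, interval -0.08 to 0.29), held 0. So did those of the 4 subunits, from 0.05 for Nfkb2 (interval -0.25 to 0.36) to 0.18 for Relb (interval -0.05 to 0.42). If the likely sign of HOE_APP were turned, 2 of 9 members would fall under 0.05 before adjustment, beside 7.93% of probes: Tnfaip3 (0.22, interval 0.03 to 0.40) and Nfkbiz (-0.22, interval -0.40 to -0.04). The difference would then be -0.01 for Bcl3, 0.19 for Nfkbia and 0.06 for Nfkbie. For the subunits it would be 0.07 (Nfkb1), 0.01 (Nfkb2), -0.11 (Rela) and -0.06 (Relb).

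These treatment values share untreated APP_WT as their reference. No marker of the cell types listed was called in them, nor was any probe in this fit. Before adjustment 5 of 19 microglia markers fell under 0.05 in BK_APP versus APP_WT, all higher, beside 4.47% of probes. In HOE_APP versus APP_WT 3 did, all lower, beside 5.03%, and in the difference 7, all higher, beside 2.5%. Of 10 astrocyte markers 3 did in each treatment, all lower. Of 12 neuron markers 2 did in BK_APP and in the difference, all lower. HOE_APP was in its likely direction here. The median log2 fold change of the 19 expressed microglia markers was 0.11 in BK_APP versus APP_WT and -0.11 in HOE_APP versus APP_WT, and 0.23 for the difference (-0.01 with the sign of HOE_APP turned). Of these markers 14 of 19 were above 0 in BK_APP versus APP_WT and 0 of 19 in HOE_APP versus APP_WT (19 of 19 with the sign turned). In the difference 19 of 19 were above 0 (8 of 19 with the sign turned). Neuron markers had medians of -0.11, -0.01 and -0.12, with 0 of 12 above 0 in BK_APP versus APP_WT and in the difference (2 of 12 in the latter with the sign turned). Astrocyte markers had medians of -0.06, -0.11 and 0.07, with 0 of 10 above 0 in HOE_APP versus APP_WT (10 of 10 with the sign turned, and a median difference of -0.16). The summed level of the microglia markers was 29687 to 44235 in BK_APP against 27529 to 46319 in its APP_WT channel and 22889 to 31855 in HOE_APP against 25625 to 36631, so the arrays overlapped. Such a sum weighs the brightest markers most and leaves out the pairing on an array. The 20 expressed NF-kB target genes had medians of 0.17, -0.06 and 0.25 (0.08 for the difference with the sign turned), with 0 called in each. Before adjustment 10 of the 20 fell under 0.05 in BK_APP versus APP_WT, all higher, beside 4.47% of probes. In HOE_APP versus APP_WT 3 did, all lower, beside 5.03%. In the difference 9 did, all higher, beside 2.5%, with HOE_APP in its likely direction. The part of the marker and target genes in the values of the members was not tested.

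Over all 12 arrays the ratios of Nfkbia were most like those of Ifit3b (r = 0.994), Oasl2 (0.992), Ifi27 (0.992), H2-K2 (0.990) and Bst2 (0.990) among 14142 other genes, which are interferon-induced or antigen-presentation genes. Among the members Relb was nearest to Nfkbia (0.948), followed by Bcl3 (0.931), Nfkbie (0.927) and Tnfaip3 (0.917), and Rela was farthest (0.544). Genes most like Rela were Cfap36 (0.963), Fkbp15 (0.961), G6pc3 (0.961) and Slc12a4 (0.961). These correlations are descriptions over 12 arrays that share slides, dyes and the APP_WT reference. The ratios used for them hold no dye term, and the fitted dye term of the Rela probe passed the test in every comparison. The part of the dye in the place of Rela and in its nearest genes was not tested. These correlations and the orders drawn from them hold for HOE_APP in its likely direction and are not given with its sign turned. The ratios of Nfkbia were 1.26 or higher in APP_WT versus WT and 0.43 or lower in the others.

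Across the series the arrays were similar in quality. Between 51.2% and 60.3% of spots were well above background in a channel, no spot of a member was uneven or saturated, and medians of the ratios of expressed probes lay between -0.02 and 0.02. Within a comparison, arrays of the same dye orientation correlated at 0.533 to 0.610 in APP_WT versus WT, 0.244 to 0.282 in BK_APP versus APP_WT and 0.337 to 0.426 in HOE_APP versus APP_WT. Arrays of opposite orientation correlated at 0.244 to 0.465 in the first and at -0.323 to -0.113 and -0.320 to -0.189 in the others. Thus the arrays of both treatment comparisons grouped by dye orientation over all expressed probes.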

How the data were processed

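For each of the 12 arrays the authors deposited the scanner software's output, which holds unnormalised median intensities of spots and local background for each dye, and a log10 ratio of dye-normalised processed signals. They also deposited a table of log2 ratios, whose columns correlated with those processed ratios (r = 0.999 to 1.00) in the direction used here and had medians of -0.155 to 0.036. From the median intensities, limma 3.58.1 (R 4.3.3) corrected the background by normexp (offset 50), normalised each array by loess (span 0.3), left out control spots and averaged the spots of a probe, and ratios were turned to compared over reference condition. Of 55681 probes, 29361 counted as expressed, by the rule of at least 3 of 4 arrays. One limma model over the 12 arrays held a mean and a dye term for each comparison (6 residual and 4.56 prior degrees of freedom). Tests were two-sided, with Benjamini-Hochberg adjustment over all expressed probes and a threshold of 0.05. A planned use of mean signals was replaced by medians, the values the files hold.

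A gene was represented by its expressed probe of highest mean intensity. RefSeq accessions named 27509 of 29150 probes that carry one. Levels are loess-normalised and then quantile-normalised (Aquantile) log2 intensities. The number of arrays limits the precision. Named genes were all members, the largest and smallest of each pathway list, direct partners and the 5 genes most like each of Nfkbia and Rela, of which 1 is not reported here. Some further values, of markers and of Ikbke, were chosen after they were seen. Members and lists were chosen with earlier results of these data known. Same-numbered arrays deviated together: ratios of BK_APP and HOE_APP correlated at r = 0.423 to 0.432 over 28900 probes, and those of APP_WT versus WT, where APP_WT is the compared condition and not the reference, at -0.507 to -0.206 with them. The levels of the APP_WT channels correlated at 0.287 to 0.623. The numbers were therefore taken as paired through APP_WT, a pairing that comes from the data, since the labels do not state it, and that rests on deviations within pairs of arrays of 1 dye orientation. Alternatives were another offset, centring, source of ratios, filter, dye term, array weights, replicate block, test and left-out arrays. The fit was tested on simulated data.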

Additional observations from a re-analysis of the deposited data

Results flagged for a closer look

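Relb in BK_APP versus APP_WT had 1 array far from the others: its ratio was 0.34 on array 3 and between -0.04 and -0.02 on the other arrays, a gap of 0.953 of the whole range. The second Relb probe was at 0.08 on that array, inside its own range of -0.21 to 0.30. Of 27 sets of 4 ratios looked at, this was the 1 that stood out, and chance gives about 1 in 20.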

How the results depend on the processing

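The count of members called in APP_WT versus WT was 6 to 9 over all alternatives, against 8, and 7 to 9 with an array left out; every fitted value of the 9 members stayed above 0. The 8 members called stayed called except Nfkb1 and Rela, with the values given beside them. No member was called in BK_APP versus APP_WT, HOE_APP versus APP_WT or BK_APP minus HOE_APP by limma in any setting, and SAM and rank products called 3 in the first. The median of the subunits in APP_WT versus WT was 0.71 with the processed intensities and with the authors' table, against 0.53. Without an array, the median of the inhibitors in BK_APP versus APP_WT was 0.11 to 0.28, and without array 3 it was 0.11. With the sign of HOE_APP turned, the medians in HOE_APP versus APP_WT were 0.054 for subunits and 0.075 for inhibitors, and the inhibitors' median in BK_APP minus HOE_APP was 0.063; why settings differ was not tested, apart from the sign itself. With the replicate block in 1 direction for all comparisons, 8 members were called in APP_WT versus WT and 0 in each other comparison, and 4170 probes in place of 5446 in the first (1834 in the separate fit without a dye term). A block over the BK_APP and HOE_APP arrays alone, chosen after seeing the data, called 0 members in these comparisons and changed no member's call; over all probes it called 49 in HOE_APP versus APP_WT. A replicate block on the APP_WT channel, also chosen after seeing the data, called 9 members in APP_WT versus WT (8265 probes) and 0 in the others. The authors' table lacked Nfkbiz in BK_APP versus APP_WT, and Nfkbiz and Bcl3 fell out under the stricter filter. Dim signals limit Bcl3, Nfkbiz and Rel.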
